A study of Arabidopsis thaliana with 8 samples.

Results

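The miRNA families miR395, miR397, miR398, miR399, miR408, miR778, miR827, miR857 and miR2111 of Arabidopsis thaliana are known to respond to the supply of sulfate, copper or phosphate. Every entry of the small RNA count tables whose name carries one of these family numbers was taken, which gave 30 of 427 mature miRNAs. Of these, 6 belonged to the sulfate family miR395, 11 to the copper families miR397, miR398, miR408 and miR857, and 13 to the phosphate families miR399, miR778, miR827 and miR2111. Flower inflorescences were compared between wild-type Col-0 and janus-2, with 2 small RNA libraries and 2 mRNA libraries of each genotype. The janus-2 plants carry a hypomorphic CRISPR/Cas9 allele of JANUS, a subunit of the splicing factor complex SF3b, with a small deletion in an exon. The line was backcrossed to Col-0 to remove the editing transgene, and its homozygous plants are smaller than Col-0 and sterile. The mutant group is this 1 line. Both genotypes were grown under long days with no treatment, so nutrient supply was not varied and the nutrient groups describe the families and not the plants. The replicates of each genotype are biological replicates according to the methods of the study, and their p-values cover the spread between these samples.

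In plants, mature miRNAs are cut from hairpin transcripts as a duplex of a 5p and a 3p strand, and the strand loaded into ARGONAUTE guides cleavage of complementary mRNAs or blocks their translation. miR395 is known to rise under sulfate shortage and to act on ATP sulfurylases and a sulfate transporter. The copper miRNAs are known to be induced by the transcription factor SPL7 when copper is scarce, and to lower copper proteins that the cell can spare. The phosphate miRNAs are known to be controlled through PHR1, and miR399 acts on PHO2, which restrains phosphate loading into the xylem.

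The only designed sequences of these families at hand were the primers for stem-loop RT-qPCR of miR399, and they are shown for the miRNA end that this assay reads.
miR399 stem-loop RT primer: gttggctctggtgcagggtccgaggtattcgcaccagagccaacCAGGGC
miR399 forward primer: cggcggtgccaaaggagattt
The capitals mark the 6 bases of the RT primer that pair with the miRNA. They were found as the part that differs between the stem-loop primers, and they read the miRNA end gccctg, written 5′ to 3′. The mature sequences of the 30 entries were not used here.

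The small RNA tables held 1950664 to 2160372 miRNA counts per library, and the 30 entries took 0.947% and 0.792% of them in Col-0 against 5.19% and 5.99% in janus-2. These shares sum all 30 entries, and miR398b-3p and miR398c-3p, which had the same counts, made up most of them. Each of these entries had 8734 and 6781 counts in Col-0 against 49756 and 53472 in janus-2. A read that fits several near-identical miRNAs may have been counted under each of them, though the counting rule is not given. The 30 entries held only 24 distinct sets of counts. The mRNA tables held 56360882 to 65578130 counts per library. JANUS itself was at 54.9 and 54.2 CPM (counts scaled to a common library size) in Col-0 against 18.3 and 19.4 CPM in janus-2, and fell by 1.53 on the log2 scale. Markers of pollen, a cell type that a sterile inflorescence can lack, were lower for 18 of 18 tested genes against 27.2% of all 22990 genes tested, with a summed level of 5833 and 5813 CPM in Col-0 against 111 and 114 CPM in janus-2. Of the 19 pollen genes, MGH3 and GEX2 had no count in janus-2, and GEX2 had none in Col-0 either. Tapetum markers were lower for 12 of 12 genes (690 and 677 CPM summed in Col-0 against 93.8 and 93.4 CPM in janus-2), and 2 of 6 flower identity genes were lower, a share near that of all genes. In whole inflorescences, fewer cells of a type and less RNA per cell cannot be told apart.

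The sulfate and copper miRNAs were mostly higher in janus-2, while the phosphate miRNAs moved in both directions or did not pass the test. Of the 30 entries, 23 had enough counts to be tested, and calls required an adjusted p no greater than 0.05 in the quasi-likelihood test of edgeR. In all, 15 were called higher against a background of 18.1% of the 304 miRNAs tested, 1 was called lower against a background of 14.1%, and 7 were not called. Counting each set of identical counts once left 19 distinct tested entries, of which 57.9% were called higher, against 16.7% of all distinct miRNAs tested. Some of these still differed by only 1 count in 1 library, as miR395e from miR395a and miR398c-5p from miR398b-5p. Counts of miR399b and miR399c-3p were also nearly the same, so the distinct entries are not all independent. All 6 sulfate entries were called higher, with a median log2 fold change of 4.55. Of the 10 tested copper entries 8 were called higher and 2 were not called, with a median of 2.53. Of the 7 tested phosphate entries 1 was called higher, 1 lower and 5 were not called, with a median of -0.35. Those shares, 14.3% higher and 14.3% lower, were near the 18.1% and 14.1% of all tested miRNAs. The median over all 304 tested miRNAs was 0.11. The janus-2 libraries lay above both Col-0 libraries for 16 of the 23 tested entries (38.5% of all tested miRNAs did so) and below them for 1 (29.3% of all). No test of the difference between the nutrient groups was run.

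**Figure D1:**
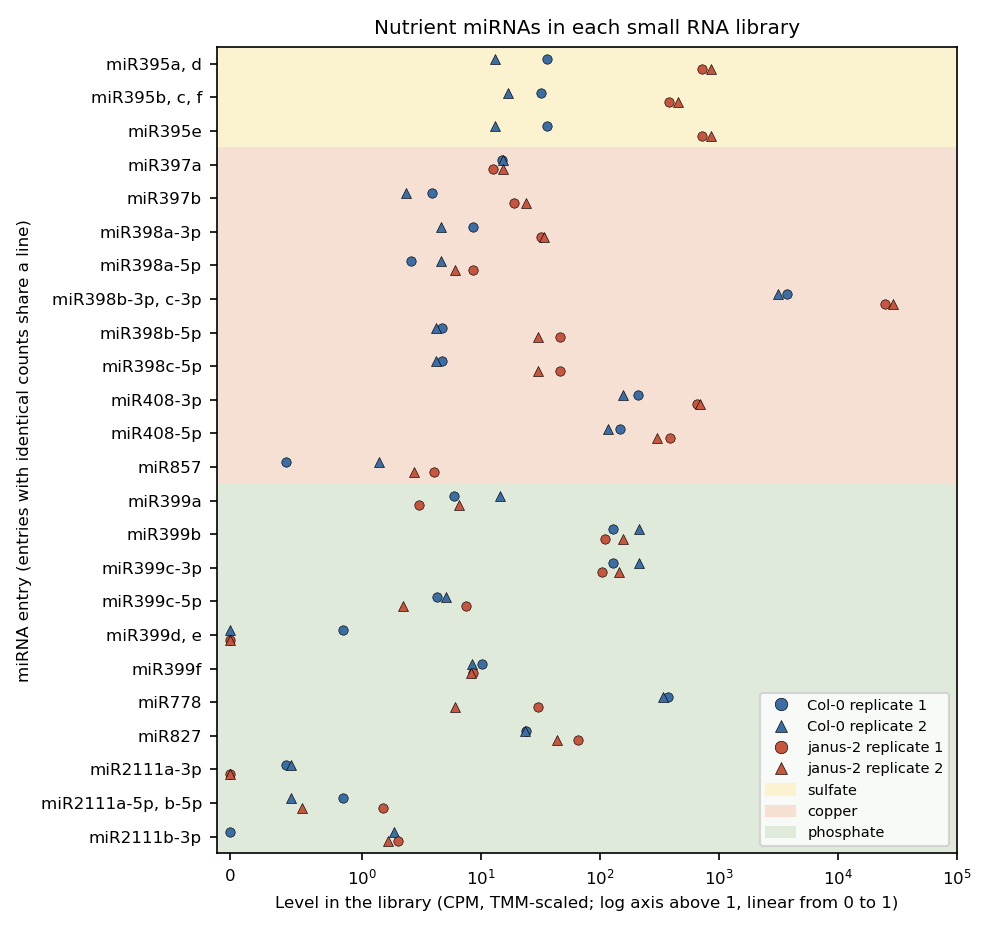
Level of each nutrient miRNA in the 4 small RNA libraries, in CPM scaled by TMM, on an axis that is logarithmic above 1 and linear from 0 to 1. Symbols mark the library, shading marks the nutrient, and entries with identical counts share a line. The red janus-2 symbols of miR395, miR398b-3p and miR408 lie to the right of the blue Col-0 symbols, those of miR778 lie to the left, and those of miR397a and miR399f overlap.

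miR395 showed the largest rise among the 30 entries. The entries miR395a and miR395d had 84 and 28 counts in Col-0 against 1449 and 1580 counts in janus-2, which are 35.9, 13.1, 730 and 868 CPM. As a ratio, the 2 Col-0 libraries differed more from each other than the 2 janus-2 libraries did, and both lay far below janus-2. The mean rose from 24.5 ± 16.2 to 799 ± 97.7 CPM (SD, n = 2), a 32.6-fold difference with a log2 fold change of 5.02 (SE 0.51, edgeR adjusted p = 0.00017). Without Col-0 replicate 1 the log2 fold change was 5.94, and without Col-0 replicate 2 it was 4.43. miR395e differed from these entries in 1 count of 1 library. These 3 entries held ranks 2 and 3 of the 304 tested miRNAs by log2 fold change.

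The entries miR395b, miR395c and miR395f shared another set of counts, 75 and 36 in Col-0 against 763 and 821 in janus-2. Their mean rose from 24.4 ± 10.8 to 418 ± 47.2 CPM (SD, n = 2), 17.1-fold, and the log2 fold change was 4.09 (SE 0.44, edgeR adjusted p = 0.00017). Both forms of miR395 were thus at about the same level in Col-0. The ratio of miR395a to miR395b counts was 1.12 and 0.778 in the Col-0 libraries and 1.90 and 1.92 in the janus-2 libraries. In the RefSeq gene order of TAIR10.1, MIR395a lies next to MIR395b and MIR395e next to MIR395f, and each of these pairs joins a locus of one form to a locus of the other.

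miR398, which acts on copper/zinc superoxide dismutases, held most of the counts of these families. miR398b-3p and miR398c-3p, which had the same counts, were at 3737 and 3161 CPM in Col-0 against 25061 and 29376 CPM in janus-2. The janus-2 libraries did not overlap with Col-0. The mean rose 7.89-fold, from 3449 ± 407.8 to 27218 ± 3051 CPM (SD, n = 2), and the log2 fold change was 2.98 (SE 0.33, edgeR adjusted p = 6.53e-06). By mean level among the tested miRNAs, miR398b-3p ranked 34 in Col-0 against 11 in janus-2. With each set of identical counts taken once, the copper families together went from 9668 and 7445 counts to 52157 and 55559.

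miR398a, the remaining MIR398 locus, was far less abundant. miR398a-3p had 20 and 10 counts in Col-0 against 63 and 62 in janus-2, again without overlap. Its log2 fold change was 2.29 (SE 0.58, edgeR adjusted p = 0.0014). Counts of miR398b-3p exceeded those of miR398a-3p by 437 and 678 times in Col-0 against 790 and 862 times in janus-2.

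miR408 acts on mRNAs of copper proteins such as plantacyanin and laccases, and both of its strands were well covered. miR408-3p was at 211 and 156 CPM in Col-0 against 653 and 701 CPM in janus-2. The groups did not overlap. The level rose 3.68-fold, and the log2 fold change was 1.88 (SE 0.36, edgeR adjusted p = 0.00388). The fold change of miR398b-3p was the larger of the pair, and the ratio of its counts to those of miR408-3p was 17.7 and 20.2 in Col-0 against 38.4 and 41.9 in janus-2. This ratio was described and not tested.

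The 2 loci of miR397, which acts on laccase mRNAs, differed in their values. miR397a had 35 and 33 counts in Col-0 against 25 and 28 in janus-2. These libraries overlapped after scaling, at 15.0, 15.4, 12.6 and 15.4 CPM, and the log2 fold change of -0.12 was not called (SE 0.56, edgeR adjusted p = 0.836). miR397b had 9 and 5 counts in Col-0 against 38 and 44 in janus-2. It was called higher, 7.01-fold, and the log2 fold change was 2.77 (SE 0.69, edgeR adjusted p = 0.000972). The ratio of miR397b to miR397a was 0.257 and 0.152 in Col-0 against 1.52 and 1.57 in janus-2, so that miR397b went from the rarer to the more frequent of the pair.

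miR857, which is known to act on the laccase mRNA LAC7, had 1 and 3 counts in Col-0 against 8 and 5 in janus-2 and was too rare to be tested. MIR857 and MIR397b are neighbours in the RefSeq gene order, with no annotated gene between them. In the mRNA libraries, which are not made for hairpin transcripts, reads over MIR857 numbered 0 and 0 in Col-0 against 5 and 10 in janus-2. Reads over MIR397b numbered 0 and 0 in Col-0 against 2 and 5 in janus-2. Both were too low for a test.

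**Figure D2:**
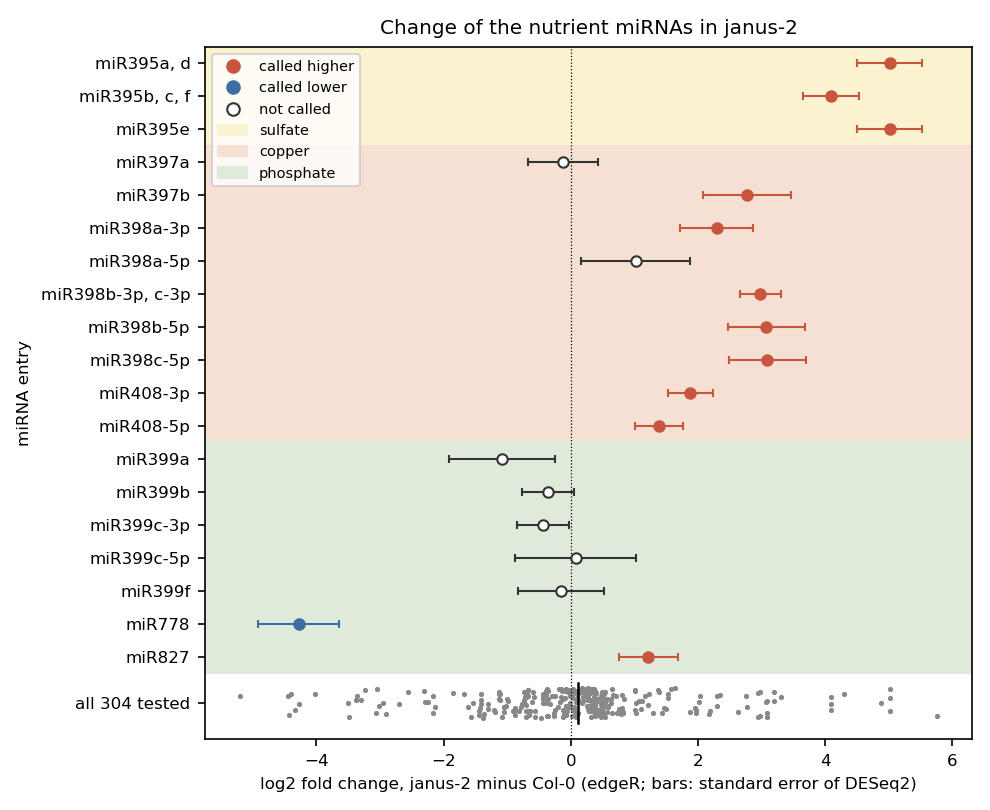
Log2 fold change of each tested nutrient miRNA, janus-2 minus Col-0, from edgeR, with bars for the standard error from DESeq2. Filled symbols were called and open symbols were not, and the grey points in the lowest line are all 304 tested miRNAs with a black line at their median of 0.11. Entries of miR395 lie near 5.02 and 4.09, and miR778 stands at -4.28.

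The phosphate families had calls in both directions, at shares near those of all tested miRNAs. miR778, which acts on the histone methyltransferase mRNAs SUVH5 and SUVH6, was the 1 entry called lower. It had 867 and 733 counts in Col-0 against 60 and 11 in janus-2, which are 371, 342, 30.2 and 6.04 CPM. The groups did not overlap, and the 2 janus-2 libraries differed widely from each other. The mean fell from 356 ± 20.7 to 18.1 ± 17.1 CPM (SD, n = 2), 19.7-fold, and the log2 fold change was -4.28 (SE 0.63, edgeR adjusted p = 0.000728). Without janus-2 replicate 1 the log2 fold change was -5.90, and without janus-2 replicate 2 it was -3.58, called both times. Among the 304 tested miRNAs, 5 had a more negative log2 fold change. Pollen and tapetum markers were lower in the same genotype, as given above, and their part in this change and in those of the other families was not tested.

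miR827, which acts on NLA, a ubiquitin ligase gene of phosphate transport, was the 1 phosphate entry called higher. It was at 24.0 and 23.3 CPM in Col-0 against 66.0 and 43.9 CPM in janus-2. The janus-2 libraries lay above both Col-0 libraries and spread more widely. The log2 fold change was 1.22 (SE 0.46, edgeR adjusted p = 0.0179). This call was lost without janus-2 replicate 1, where the log2 fold change was 0.87 (edgeR adjusted p = 0.195).

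None of the 5 tested miR399 entries was called. miR399b was at 129 and 214 CPM in Col-0 against 111 and 158 CPM in janus-2, so the groups overlapped. Its log2 fold change was -0.35 (SE 0.41, edgeR adjusted p = 0.516). miR399c-3p, with 300 and 454 counts in Col-0 against 207 and 266 in janus-2, had a log2 fold change of -0.44 (SE 0.41, edgeR adjusted p = 0.428). Counts of miR399b and miR399c-3p were nearly the same in each library, with ratios of 1.01, 1.01, 1.07 and 1.08, and reads shared between them cannot be told apart.

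The remaining miR399 entries were rarer. miR399a was at 5.99 and 14.4 CPM in Col-0 against 3.02 and 6.59 CPM in janus-2, and the log2 fold change was -1.08 (SE 0.83, edgeR adjusted p = 0.184). Without Col-0 replicate 1 it was -1.58 and was called (edgeR adjusted p = 0.0194). It was -0.37 without Col-0 replicate 2, -0.62 without janus-2 replicate 1 and -1.73 without janus-2 replicate 2, and was not called there (edgeR adjusted p = 0.741, 0.566 and 0.1002). miR399f had 24 and 18 counts in Col-0 against 17 and 15 in janus-2, and was not called (log2 fold change -0.15, SE 0.67). miR399d and miR399e had 2 counts in Col-0 replicate 1 and 0 in the other libraries. Since 0 counts allow up to 3, these entries may be present at up to 1.40 to 1.65 CPM in the libraries that had none. Such limits, and the intervals below, cover counting error only.

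The 4 entries of miR2111, which acts on an F-box mRNA known as TML, had 0 to 4 counts in every library and were not tested. miR2111a-5p and miR2111b-5p shared their counts, 2 and 1 in Col-0 against 3 and 1 in janus-2. miR2111a-3p had 1 count in each Col-0 library and 0 in each janus-2 library, a difference not detectable at this depth.

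The strands of each hairpin were then compared, to ask whether both had changed by the same factor. Of the 5 hairpins of these families with both strands tested, none had a called difference between its 3p and 5p log2 fold changes (edgeR's test of differential exon usage with strands as exons), against 17.7% of 62 hairpins overall. At an unadjusted p of 0.05, 22 of the 62 hairpins passed, and miR398a did so among the 5.

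The 3p strand made up nearly all counts of miR398b, 99.8% to 99.9% in each library. miR398b-5p had 11 and 9 counts in Col-0 against 91 and 55 in janus-2 and was itself called higher (log2 fold change 3.08, SE 0.60, edgeR adjusted p = 0.000365). The 3p minus 5p difference of miR398b was -0.098 (edgeR adjusted p = 0.894), and the log2 fold changes of the strands lay close together, at 2.98 and 3.08. miR398c-5p differed from miR398b-5p in 1 count of 1 library. Its log2 fold change was 3.09, and the strand difference of miR398c was -0.11.

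miR408 was the hairpin with the most even strands. miR408-5p had 347 and 250 counts in Col-0 against 771 and 551 in janus-2, without overlap. It was called higher with a log2 fold change of 1.38 (SE 0.38, edgeR adjusted p = 0.0164), a call that was lost without janus-2 replicate 1 (edgeR adjusted p = 0.0613). The 3p share was 58.7% (exact 95% binomial interval 55.3% to 62.1%) and 57.3% (53.1% to 61.3%) in the Col-0 libraries. It was 62.7% (60.6% to 64.8%) and 69.8% (67.7% to 71.9%) in the janus-2 libraries. Both janus-2 shares were above both Col-0 shares, and the 2 janus-2 libraries also differed from each other beyond their counting intervals. The difference of 0.50 between the log2 fold changes was not called (edgeR adjusted p = 0.466).

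**Figure D3:**
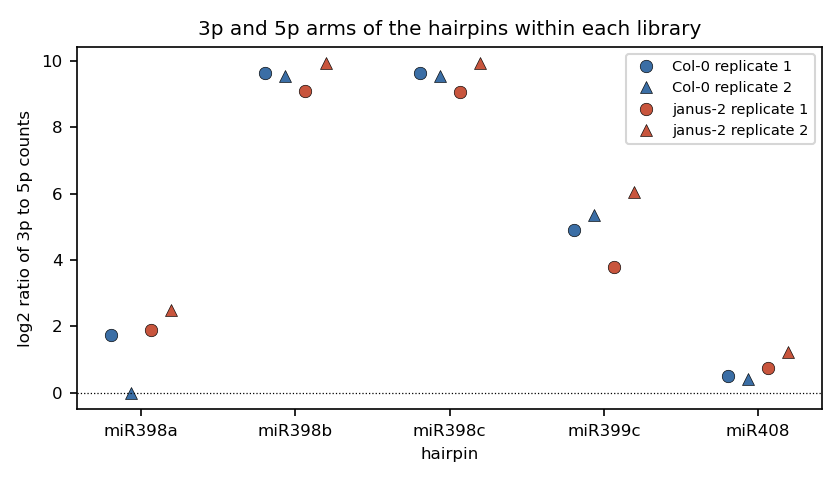
Log2 ratio of 3p to 5p counts within each library for the 5 hairpins of these families with both strands tested, with 1 symbol per library. The Col-0 and janus-2 symbols overlap for miR398b, miR398c and miR399c, and the janus-2 symbols lie above those of Col-0 for miR398a and miR408.

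miR398a-5p had 6 and 10 counts in Col-0 against 17 and 11 in janus-2 and was not called (log2 fold change 1.02, SE 0.86, edgeR adjusted p = 0.151). The 3p share of miR398a was 76.9% and 50.0% in Col-0 against 78.8% and 84.9% in janus-2. Its 3p minus 5p difference was 1.27 (unadjusted p = 0.0283, edgeR adjusted p = 0.0876). Without Col-0 replicate 1 it was 2.16 and was called (edgeR adjusted p = 0.0114), and without Col-0 replicate 2 it was 0.44 and was not called. The hairpin of miR399c had a 3p share of 96.8% and 97.6% in Col-0 against 93.2% and 98.5% in janus-2. miR399c-5p had only 10, 11, 15 and 4 counts, its log2 fold change was 0.076 (SE 0.95, edgeR adjusted p = 0.933) with a sign that flipped under other scalings, and the strand difference of -0.52 was not called (edgeR adjusted p = 0.497).

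The hairpin transcripts themselves were hardly seen in the mRNA libraries, and whether that counting used strand is not given in the sources used here. Of the 23 MIR genes of these families in the mRNA tables, 14 had no count in either janus-2 library and only MIR398c was tested. It had 4 and 7 counts in Col-0 against 11 and 12 in janus-2, and its log2 fold change of 1.06 was not called (edgeR adjusted p = 0.152).

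mRNAs known as targets of these miRNAs moved in both directions in janus-2. An mRNA was called when its edgeR adjusted p was at most 0.05 and its level differed at least 1.5-fold. Of 21 target genes, 20 were tested, 5 were lower against 27.2% of all genes tested, 8 were higher against a background of 18.5%, and 7 were not called. Their median log2 fold change was -0.0064, beside -0.019 for all genes tested. The janus-2 libraries lay below both Col-0 libraries for 9 of the 20 targets and above them for 8, beside 46.6% and 44.2% of all genes tested. Without the fold threshold, 9 targets were called lower.

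Targets of miR395 rose except for APS4. APS1, an ATP sulfurylase of sulfate assimilation, was at 149 and 154 CPM in Col-0 against 387 and 384 CPM in janus-2, and the log2 fold change was 1.35 (SE 0.027). The related APS3 had a log2 fold change of 1.25 (SE 0.071), and the sulfate transporter SULTR2;1 one of 1.86 (SE 0.064). APS4 was at 48.0 and 45.4 CPM in Col-0 against 10.4 and 10.6 CPM in janus-2, and fell by 2.15 on the log2 scale (SE 0.078). The genotype with more miR395 thus had more mRNA of 3 of these 4 targets.

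Targets of the copper miRNAs were lower, higher or not called, and over all genes tested 27.2% were lower and 18.5% were higher. CSD2, the chloroplast copper/zinc superoxide dismutase, was at 297 and 295 CPM in Col-0 against 128 and 128 CPM in janus-2, and fell by 1.21 on the log2 scale (SE 0.029). CSD1, its cytosolic relative, was at 157 and 151 CPM in Col-0 against 81.0 and 84.6 CPM in janus-2, and fell by 0.89 (SE 0.040). For both genes the janus-2 libraries lay below both Col-0 libraries, as they did for 46.6% of all genes tested. CCS, the copper chaperone of these enzymes, and COX5b-1, a subunit of cytochrome c oxidase, had log2 fold changes of -0.20 and -0.11 and did not reach the fold threshold. Of the miR397 targets, LAC17, a laccase of lignin formation, fell by 0.71 (SE 0.30, edgeR adjusted p = 0.00159), a call lost without Col-0 replicate 1 or janus-2 replicate 1. LAC4 was at 90.4 and 90.0 CPM in Col-0 against 63.7 and 65.7 CPM in janus-2. Its log2 fold change of -0.48 (edgeR adjusted p = 1.98e-46) did not reach the fold threshold. LAC2, at -0.017 with overlapping libraries, was not called (edgeR adjusted p = 0.930).

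The miR408 targets were split. ARPN, which encodes plantacyanin, was at 46.8 and 44.8 CPM in Col-0 against 22.3 and 22.4 CPM in janus-2, and fell by 1.03 (SE 0.067). The laccase mRNAs LAC12 and LAC13 were higher, by 1.95 (SE 0.31) and 0.92 (SE 0.15) on the log2 scale. LAC12 was rare, with 32 and 58 counts in Col-0 against 180 and 164 in janus-2, and LAC3 was not tested. LAC7, the miR857 target, had a log2 fold change of 0.26 and was not called (edgeR adjusted p = 0.314).

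Among targets of the phosphate miRNAs, NLA rose the most, from 9.12 and 10.1 CPM to 47.7 and 49.1 CPM, and the log2 fold change was 2.33 (SE 0.080). Its regulator miR827 was higher in the same genotype. PHO2 rose by 0.78 (SE 0.030), from 141 and 140 CPM to 239 and 243 CPM, while no miR399 entry was called. SUVH5 and SUVH6, the targets of miR778, had log2 fold changes of -0.17 (SE 0.10) and 0.0037 (SE 0.077) and were not called, while miR778 was 19.7-fold lower. TML was called higher at 0.84 (SE 0.56, edgeR adjusted p = 0.0298), with overlapping counts of 34 and 15 in Col-0 against 36 and 52 in janus-2, and this call was lost with DESeq2 (adjusted p = 0.174). Leaving out 1 library gave 1.67 (Col-0 replicate 1), 0.27 (Col-0 replicate 2), 1.13 (janus-2 replicate 1) and 0.50 (janus-2 replicate 2), and the calls with 0.27 and 0.50 were lost.

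**Figure D4:**
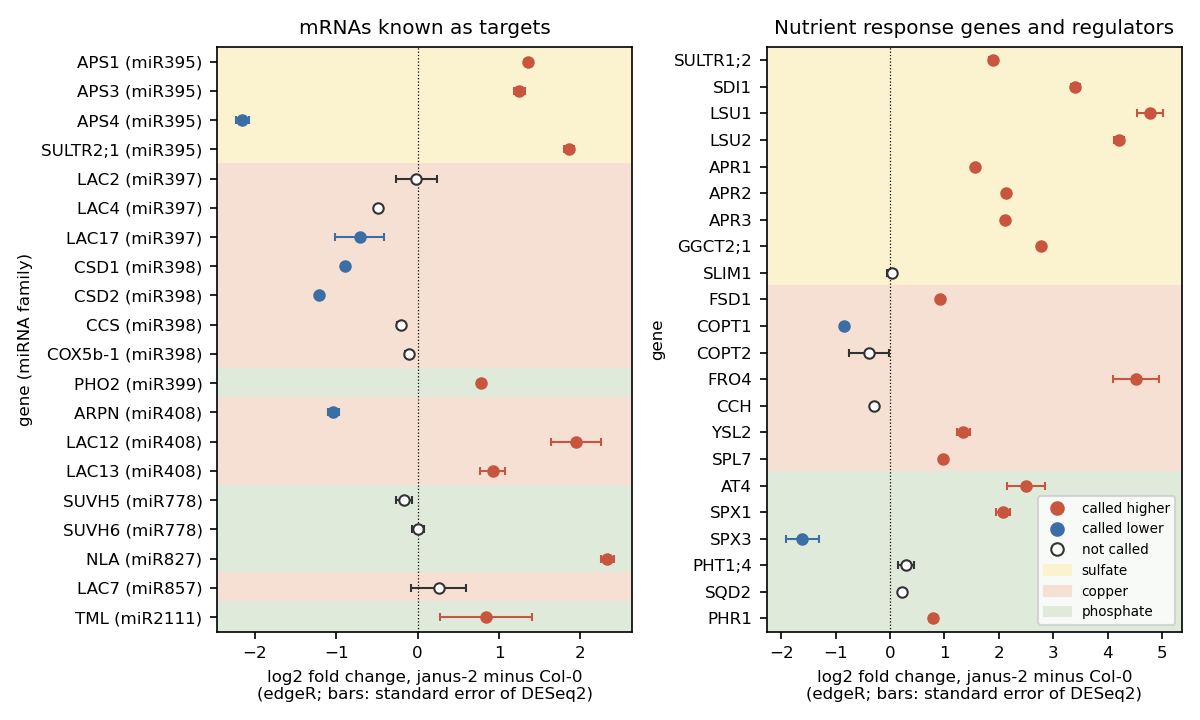
Log2 fold change, janus-2 minus Col-0, of the tested target mRNAs (left, with the miRNA family in brackets) and of known nutrient response genes and regulators (right), from edgeR with bars for the standard error from DESeq2. Shading marks the nutrient, filled symbols were called and open symbols were not. On the left, values run from -2.15 for APS4 to 2.33 for NLA, and on the right 8 of the 9 sulfate genes lie between 1.56 and 4.78.

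mRNAs that are known to mark each nutrient response were read in the same libraries, together with the regulators SLIM1, SPL7 and PHR1. The counts below include these regulators, and SPL7 and PHR1 are among the genes called higher. Of 10 sulfate genes 9 were tested, and 8 were higher, none was lower and 1 was not called, with a median log2 fold change of 2.13. Over all genes tested, 18.5% were higher and 27.2% were lower. LSU1, a gene of unclear function known for its strong induction by sulfur shortage, had 26 and 31 counts in Col-0 against 773 and 790 in janus-2, and the log2 fold change was 4.78 (SE 0.24). Its relative LSU2 rose by 4.21, SDI1, a repressor of glucosinolate synthesis, by 3.41, and the adenosine phosphosulfate reductases APR1, APR2 and APR3 by 1.56, 2.13 and 2.12. SLIM1, the transcription factor of the sulfate response, was at 22.7 and 25.2 CPM in Col-0 against 25.0 and 24.1 CPM in janus-2, and was not called.

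Of 9 copper genes 7 were tested, and 4 were higher (18.5% of all genes) and 1 was lower (27.2% of all genes), with a median of 0.92. FRO4, a copper reductase gene, had 7 and 12 counts in Col-0 against 218 and 220 in janus-2, and the log2 fold change was 4.52 (SE 0.42). FSD1, the iron superoxide dismutase that replaces the copper enzymes when copper is scarce, rose by 0.92 (SE 0.037), and SPL7 rose by 0.97 (SE 0.042). The copper transporter mRNA COPT1 fell by 0.84 (SE 0.063). YSL2 was called higher at 1.35, while COPT2 at -0.39 and CCH at -0.29 were not called. CCH passed the p threshold (edgeR adjusted p = 4.08e-21) and did not reach the fold threshold. The janus-2 libraries lay below both Col-0 libraries for 3 of the 7 tested genes and above them for 4, beside 46.6% and 44.2% of all genes tested. ZIP2, with 8 and 12 counts in Col-0 against 1 and 2 in janus-2, was not tested.

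Of 8 phosphate genes 6 were tested, and 3 were higher (18.5% of all genes) and 1 was lower (27.2% of all genes), with a median of 0.55. AT4, a noncoding RNA that sequesters miR399, had 24 and 28 counts in Col-0 against 166 and 128 in janus-2, and the log2 fold change was 2.50 (SE 0.35). SPX1, a phosphate sensor gene, rose by 2.08 (SE 0.13) and PHR1 by 0.80 (SE 0.049). SPX3, of the same family as SPX1, fell by 1.61 (SE 0.31).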

How the data were processed

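Total RNA of inflorescences was sequenced as small RNA and as mRNA. Per the labels, the deposited files hold raw counts per miRNA or per gene, and the submitters' processing notes name Bowtie, HTSeq and TAIR10. According to the methods of the study, the authors removed reads of structural RNAs. How reads with several matches were counted is not given in the sources used here. Reads with no feature made up 96.4% to 97.1% of aligned small RNA reads and 1.11% to 1.13% of aligned mRNA reads. Ambiguous reads made up 0.0652% to 0.0825% and 2.15% to 2.34%. Both kinds were left out of library sizes.

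Counts were tested with edgeR 4.0.16 in R 4.3.3 (filterByExpr, TMM, quasi-likelihood test, Benjamini-Hochberg adjustment over all tested miRNAs or genes). Standard errors came from DESeq2 1.42.0, and CPM were scaled by TMM factors. Strands were compared with diffSpliceDGE. Per-library values were given for called entries, the most frequent entry of each family, both strands of hairpins, miR399c-3p and some mRNAs, and log2 fold changes for all target genes tested and the list genes that changed most. The members and lists were chosen with earlier results of these data known. Alternatives changed the scaling, filter, test, shared reads, replicate block and libraries. The coefficient of variation between replicates, from the common dispersion of edgeR, was 25.5% for small RNA and 2.26% for mRNA. The mRNA replicates thus lay close together, and how far they hold the spread between plants was not tested. Gene names were matched to RefSeq TAIR10.1 for 28009 of 28775 genes, and figures were drawn with matplotlib 3.10.9.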

Additional observations from a re-analysis of the deposited data

How the results depend on the processing

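Over 13 alternatives, 13 to 15 of the nutrient miRNAs were called higher and 1 to 2 lower, while all miRNAs called ranged from 36 to 71 higher and from 37 to 85 lower. The median of all tested miRNAs was -0.23 with upper-quartile factors or all aligned reads, -0.069 with table totals and 0.22 with 1 entry of each set of identical counts, against 0.11. With upper-quartile factors, all aligned reads or without Col-0 replicate 1, 2 entries were called lower, the second being miR399a (log2 fold change -1.42, -1.40 and -1.58). The call of miR827 was lost with upper-quartile factors (edgeR adjusted p = 0.0603), all aligned reads (0.0537) and the DESeq2 test (0.0588), and that of miR408-5p with upper-quartile factors (0.0538). miR395a ranged from 4.43 to 5.94 without 1 library.

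miR399c-5p turned to -0.013 with DESeq2 size factors, -0.24 with upper-quartile factors, -0.10 with table totals, -0.26 with all aligned reads, -0.011 with the DESeq2 test, and -0.034 and -1.09 without Col-0 replicate 1 and janus-2 replicate 1. It was 0.66 at the highest, without janus-2 replicate 2. Leaving out Col-0 replicate 2 gave 0.018 for miR399b, and leaving out Col-0 replicate 1 gave -0.66. Without janus-2 replicate 1 the strand differences were 0.34 for miR398b and miR398c and 0.87 for miR399c, while leaving out janus-2 replicate 2 gave -0.49, -0.51 and -1.37. Hairpins with a called strand difference numbered 0 to 1 without 1 library. Without the fold threshold, 9 targets and 2 copper genes were called lower and 5 phosphate genes higher. Copper genes called lower numbered 1 to 2 without 1 library. SUVH6 was -0.065 with upper-quartile factors, -0.012 with table totals, -0.00070 with the DESeq2 test and -0.0080 and 0.024 without janus-2 replicates 1 and 2. SLIM1 was -0.039 with upper-quartile factors and -0.040 without Col-0 replicate 1, and LAC2 was 0.062, 0.23 and -0.29 without Col-0 replicate 2, janus-2 replicate 1 and janus-2 replicate 2. LAC17 lost its call without Col-0 replicate 1 or janus-2 replicate 1, and TML without Col-0 replicate 2 or janus-2 replicate 2. The cause was not tested.

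The replicate numbers were not shown to pair the samples (the deviations of same-numbered small RNA libraries correlated at -0.161). With the replicate block, 15 nutrient miRNAs were called higher and 1 lower, and miR399c-5p was -0.017. With the crossed replicate block, added after seeing the data, 15 were called higher and 1 lower, and miR399c-5p was -0.010.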
